A study of Mus musculus with 15 samples.

Results

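The cells described here are aortic myeloid cells of the mouse that carry transcripts of Retnla, Cd209a, Ear2, Fcrls and Clec4b1, 5 genes called set B below. Barcodes with 200 to 7000 detected genes and at most 25% mitochondrial UMIs (unique molecular identifiers, each marking 1 captured RNA molecule) were kept. A kept cell passed the myeloid gate if at least 2 of the 4 genes Csf1r, Lyz2, Fcer1g and Tyrobp had a UMI, if Cd3e, Ms4a1 and Cdh5 had none, and if Lum and Pdgfra together had no more than 1. Within the gate, a set B cell had UMIs of 3 or more set B genes and of more set B genes than set A genes, where set A was Mrc1, Cd163, Folr2, F13a1 and Cd209f. The mirror rule on set A gave resident-type cells, which serve as the nearest neighbours. Of 128019 kept cells, 11223 passed the gate, 1156 were set B cells, 1864 were resident-type cells and 8203 were neither. Set B cells thus made up 0.903% of all kept cells and 10.3% of the gate. Since UMIs of these 10 genes chose the cells, the levels of those genes in them, and all differences from resident-type cells, are given as a description with no test.

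Arteries hold macrophages that seed the wall before birth and renew there, and cells that arrive later as blood monocytes. Monocytes leave the marrow through the chemokine receptor Ccr2, enter tissues and can become macrophages or antigen-presenting cells rich in MHC class II. Conventional dendritic cells are a separate lineage that depends on the receptor Flt3, and they share many surface genes with monocyte progeny, Cd209a among them. Retnla, the leading gene of set B, is induced by interleukin 4 in alternatively activated macrophages.

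The libraries came from whole aortas of wildtype mice, freed of perivascular fat and digested, from which single viable cells were sorted for droplet 3′ sequencing. Mice were young (Y), at 3 months, or old (O), at 27 months, as the series' design text has it, while the study's methods give another age for the young mice. Each age was given vehicle (VEH) or fisetin (FIS). Fisetin, a plant flavonoid used as a senolytic, or vehicle alone was given for a week, stopped for a pair of weeks and given for another week, and the aortas were taken 1 to 2 weeks after dosing ended. O VEH had 2 female (F) libraries and 1 male (M) library, and the other groups had 2 of each sex. By the labels each of the 15 libraries pooled 3 mice, although the study's methods allow fewer in some, so the library is the replicate and single mice cannot be told apart. All groups shared the strain, the digestion and the sort. No mark of cell origin was measured, and the old vehicle and young vehicle groups each serve as control in more than 1 comparison below.

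The libraries held 49964001 to 74587567 UMIs and 6372 to 14805 kept cells, with medians of 3313 to 6420 UMIs per kept cell. Libraries Y FIS M1 and Y FIS M2 stood apart before any result. They had 68 and 26 gate cells (0.459% and 0.298% of their cells), against 4.77% to 20.3% in the other 13 libraries, and held 3 and 0 set B cells. Set B fits and levels therefore rest on 13 libraries, and Y FIS is represented there by its 2 female libraries alone. No set B barcode was shared between libraries. In all 13 libraries X-inactivation and Y-linked RNAs went with the labelled sex. Scrublet, a doublet caller, marked 1 of the 1156 set B cells, but it marked under 0.5% of cells in 3 libraries (Y FIS F2, O FIS M1 and O VEH F1) and did not work there. Of the set B cells, 84 were in the top 8% of doublet scores of their library.

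Set B cells were large in RNA content. Their median was 16062.5 UMIs and 3939.5 genes per cell, against 8182 UMIs and 2787 genes in resident-type cells and 6380 UMIs in the remaining gate cells. Over the 13 libraries the median UMI count of set B cells ran from 13423 to 20166 and that of resident-type cells from 5685 to 9863.5, with no overlap. A deeper cell more easily shows 3 genes with a UMI, so the rule and the depth move together. The part of depth in the choice was not tested beyond the thinned shares given in the closing section.

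The label under which these cells were chosen calls them monocyte-derived macrophages, and the markers bore out only part of that name. Ccr2, the monocyte homing receptor, had a UMI in 93.3% of set B cells and 16.4% of resident-type cells, at 999 ± 138 CPM (UMIs of the gene per 1000000 UMIs, SD over 13 libraries) against 157 CPM. The integrin Itgam (CD11b), which monocytes share with many macrophages, had 449 ± 40.0 CPM against 292 CPM and a UMI in 94.4% against 65.5% of cells. The remaining 10 monocyte genes were low, led by Plac8 at 83.6 ± 52.9 CPM and in 13.4% of cells. Of 11 monocyte genes with at least 5 CPM, 3 were higher in set B than in resident-type cells in all 13 libraries and 0 were lower, where 15.5% of the 10646 genes with at least 5 CPM were higher and 12.5% lower in all. All 14 genes of a macrophage core list were lower in set B cells in all 13 libraries, with a median log2 difference of -2.68, beside a median of 0.001 over those 10646 genes. C1qa, a subunit of complement C1q, had 549 ± 277 CPM against 5563 CPM. Apoe, an apolipoprotein that macrophages secrete, had 709 ± 705 CPM against 15530 CPM. Endothelial, fibroblast, smooth muscle, B cell and neutrophil lists summed to 250, 331, 47.2, 116 and 43.9 CPM. Markers of T and NK cells, mesothelium, mast cells and adrenal gland had summed levels of 8.17, 1.35, 4.23 and 1.98 CPM, and Lrrn4, a mesothelial marker, had no UMI at all. The cells are therefore called set B cells here, by their rule, and no origin is assigned.

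Red-cell RNA was the largest of the foreign marker signals. The 5 erythrocyte genes summed to 35750 CPM on average in set B cells, with a range of 4907 to 148800 CPM over libraries, and to 118900 CPM in resident-type cells. O VEH F1 was the highest library, with 88360 CPM of the globin Hbb-bs against 2617 to 23820 CPM in the other 12. Here, for Retnla and Cd209a in the next paragraph and for the genes called with age, values of single libraries are TMM-normalised CPM (trimmed mean of M-values, a scaling between libraries). Means beside resident-type cells, list sums and all other CPM are without that scaling. Erythrocyte UMIs count in the denominator of every CPM below, and their part in the class differences was not tested.

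Among the set B genes, Retnla (chr16:48662895-48664824, plus strand, build GRCm39) was by far the most abundant. It had 13260 ± 2739 CPM in set B cells, lowest in Y VEH M1 at 6028 and highest in Y VEH M2 at 16750, against 3604 CPM in resident-type cells. It encodes the secreted RELM-alpha. Retnla UMIs also occurred in 13.5% of endothelial cells and 16.4% of B cells, at median depths of 4153 and 7459 UMIs. They occurred in 89.4% of set B cells, which were deeper. Whether free RNA, doublets or expression gave the UMIs in those other cells was not tested. Fcrls (chr3:87156616-87181827, minus strand), an Fc receptor-like gene best known from microglia, had 713 ± 113 CPM against 365 CPM. Ear2 (chr14:44311771-44340996, plus strand), a secreted ribonuclease of the eosinophil-associated family, had 572 ± 123 CPM against 11.9 CPM, the widest ratio of the 5. Clec4b1 (chr6:123026921-123048514, plus strand), a C-type lectin, had 327 ± 42.4 CPM against 74.5 CPM. Cd209a (chr8:3793397-3798984, minus strand), the mouse homologue of the lectin DC-SIGN, had 331 ± 145 CPM against 51.1 CPM and varied most between libraries, from 94.8 in O FIS F2 to 666 in Y VEH F1. Endothelial cells carried UMIs of Ear2, Fcrls, Clec4b1 and Cd209a in 0.581%, 0.66%, 0.278% and 0.209% of cells. In the last 500 transcript bases, the part that 3′ reads sample, Ear2 shared 56.6% of its 31-base words with other genes, chiefly its own family, and Clec4b1 18.1% with neighbouring Clec4 genes, so these counts may be split or merged with relatives. Retnla shared 2.55% with Retnlg, and Cd209a and Fcrls shared none.

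The set A genes were not absent. Mrc1, the mannose receptor, had a UMI in 89.5% of set B cells at 685 ± 99.9 CPM, and F13a1, coagulation factor XIII A, in 68.9% at 791 ± 210 CPM. Both were lower than in resident-type cells, at 2067 and 2781 CPM. Cd163, the haemoglobin scavenger receptor, was in 32.1% of set B cells at 54.1 ± 23.5 CPM. Folr2 and Cd209f were in 4.07% and 1.64% of cells, against 74.4% and 43.7% of resident-type cells. UMIs of 2 set A genes were the most common state, in 680 cells (58.8%).

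Cells differed in which set B genes they showed. Of the 1156 cells, 319 had 3 of the 5 genes, 632 had 4 and 205 had all 5, with median depths of 11585, 17511 and 18832 UMIs. The most common pattern, Retnla, Ear2, Fcrls and Clec4b1 without Cd209a, was found in 520 cells (45.0%). Cd209a had a UMI in 38.4% of set B cells (95% exact binomial interval 35.6 to 41.3, counting error only), the lowest share of the 5. Near the threshold, the 319 cells just inside were compared with 666 cells just outside, which had 2 set B genes and fewer set A genes. Just inside, Mrc1 had UMIs in 71.5%, H2-Ab1 in 96.6% and the monocyte gene Plac8 in 24.1% of cells. Just outside, these shares were 17.6%, 66.5% and 58.0%, and Ly6c2, another monocyte gene, had UMIs in 5.64% of cells inside and 23.1% outside. Mrc1 is a set A gene, and the rule allowed more set A genes inside than outside, so its gap was in part set by the rule. At the other edge, 191 cells had 3 or more set B genes and as many set A genes, and so were in neither class. Their Retnla, at 14080 CPM, was as high as the 13840 CPM over all set B cells pooled, with Fcrls at 594 against 717 CPM, and they had 1345 against 678 CPM of Mrc1 and 4017 against 533 CPM of C1qa. For a given number of set B genes a tie needs more set A genes than a set B cell has, which favours Mrc1.

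Of 3733 genes with at least 50 CPM in either class, 1121 were higher and 625 lower in set B cells in all 13 libraries. The genes outside the rule that stood highest over resident-type cells were led by Upb1, an enzyme of pyrimidine breakdown, at 124 ± 30.0 CPM against 0.438 CPM, a mean log2 difference of 4.54 ± 0.32 (SD over 13 libraries, with 5 CPM added to both). Next came Ltb4r1 at 4.41, the leukotriene B4 receptor that guides leukocytes, and H2-DMb2 at 4.39, which helps load peptides on MHC class II. Cd226, an adhesion receptor also used to name Ccr2-dependent macrophages of body cavities, had 347 ± 80.0 CPM and a UMI in 81.1% of set B cells, against 7.03% of resident-type cells. Napsa, Itgax (CD11c), Kcnn4 and Aldh1a2, an enzyme that makes retinoic acid, followed with log2 differences of 3.90, 3.76, 3.70 and 3.65. Lpl, the lipoprotein lipase, had 1234 ± 354 CPM against 123 CPM, and Lyz1 had 2376 ± 722 CPM against 300.0 CPM. At the other end stood Lyve1, the hyaluronan receptor of perivascular macrophages, at 3.68 ± 5.00 CPM against 605 CPM, then the chemokine Ccl8, the scavenger receptor Stab1, Fcna and Apoe, with log2 differences of -6.24, -6.03, -5.28, -4.97 and -4.92. The plot of class differences shows all 30 of these genes.

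**Figure D1:**
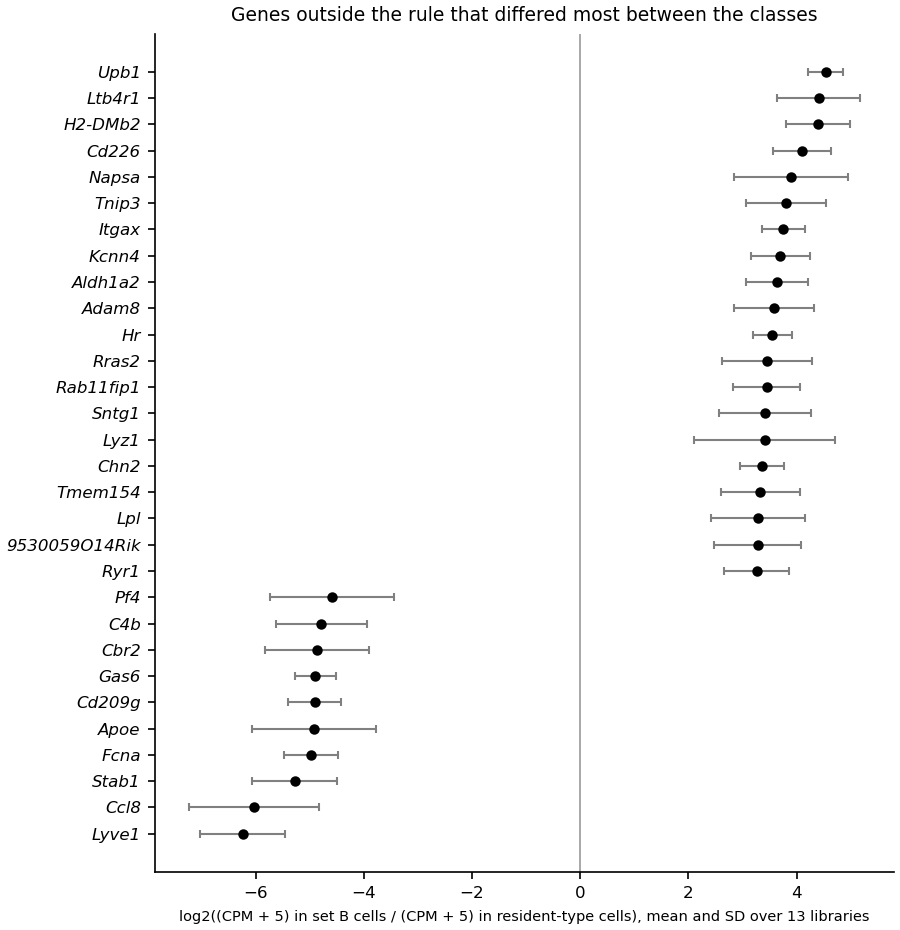
Mean log2 difference in CPM (5 CPM added) between set B cells and resident-type cells of the same library for the 20 genes highest and the 10 lowest outside the rule, with the SD over 13 libraries. Upb1 leads at 4.54 and Lyve1 is lowest at -6.24, and none of the bars reaches the zero line.

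By function, the antigen-presentation genes stood out on the high side. The counts below stand beside 1648 of 10646 genes higher and 1329 lower in all libraries. Of 11 MHC class II genes, 8 were higher in set B cells in all 13 libraries and 1 was lower, and the list summed to 36940 CPM against 24440 CPM. Cd74, the invariant chain, had 15900 ± 2942 CPM against 10100 CPM, and H2-Ab1 6331 ± 1136 CPM against 3663 CPM. The complement and Fc receptor list went the other way, with 11 of 14 genes lower in all libraries, as did a list of further resident macrophage genes, with 13 of 14 lower. Alternative activation genes were mixed. The lectin Mgl2 was lower in set B cells (543 ± 202 against 809 CPM) and the inhibitory receptor Cd200r1 higher (179 ± 27.1 against 45.9 CPM), and the list had 2 genes higher and 3 lower in all libraries. Of 12 cavity macrophage genes, 11 had at least 5 CPM, and Cd226 and Irf4, a transcription factor, were the 2 higher throughout, while Timd4 and Itga6 were the 2 lower throughout. The median log2 difference of that list was -0.70, and it summed to 523 CPM against 1068 CPM. Among lipid and iron genes, Lgals3 (galectin 3) was higher, at 1239 ± 237 against 299 CPM, and Fth1 (ferritin heavy chain) lower, at 3222 ± 368 against 5244 CPM. Of 21 interferon-response genes with at least 5 CPM, 9 were lower in all libraries and 0 higher. Of 18 chemokine and cytokine genes with at least 5 CPM, 2 were higher and 6 lower in all libraries, with a median log2 difference of -0.77. The most abundant, Ccl6 and Ccl9, were on the high side. Ccl6 had 2518 ± 251 CPM against 1819 CPM (higher in 12 of 13 libraries), and Ccl9 1178 ± 162 CPM against 609 CPM.

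A minority of set B cells carried transcripts of dendritic cells. Flt3, Zbtb46 and Dpp4, which mark conventional dendritic cells, were picked for this split after their values were seen. At least 2 of the 3 had a UMI in 255 set B cells, and 901 had fewer. In the 12 libraries with 5 or more such cells, Retnla averaged 2125 CPM in cells with the dendritic genes and 16840 CPM in those without, lower in 12 of 12 libraries. Cd209a went the other way, with 1043 CPM against 120 CPM, higher in 12 of 12. F13a1 (155 against 984 CPM), Csf1r, the receptor for macrophage growth factor (84.9 against 282 CPM), C1qa (51.8 against 757 CPM) and Lyz2 (3734 against 11090 CPM) were each lower in all 12 libraries. H2-Ab1 (9441 against 5533 CPM) and the lectin Clec10a (397 against 81.5 CPM) were higher in all 12. Ear2 and Fcrls were lower in all 12, at 258 against 679 CPM and 278 against 837 CPM. Clec4b1 differed least of the set B genes, at 363 against 318 CPM, and was higher in 8 of 12. Ccr2 had a UMI in 96.47% of cells with the dendritic genes and in 92.45% of those without. Itgam had one in 96.08% and 93.9%, so detection of these 2 genes did not separate the kinds. These values are a description only. Retnla, Cd209a, Ear2, Fcrls and Clec4b1 are in the rule, and since it asks for 3 of the 5, a cell lacking one of them must carry others. F13a1 is a set A gene, and Csf1r and Lyz2 are genes of the gate, so they too took part in the choice of cells. Of the 123 set B cells without a Retnla UMI, 94.3% had one of Cd209a. The median depths were 17312 and 15476 UMIs. Of the 14 dendritic genes listed, 11 had at least 5 CPM. Of these, 5 were higher than in resident-type cells in all libraries, Batf3 (229 ± 20.7 CPM) and Cd24a (153 ± 44.0 CPM) among them. The other 2 that went 1 way throughout were lower, Clec10a at 151 against 353 CPM and Irf8 at 29.2 against 104 CPM.

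**Figure D2:**
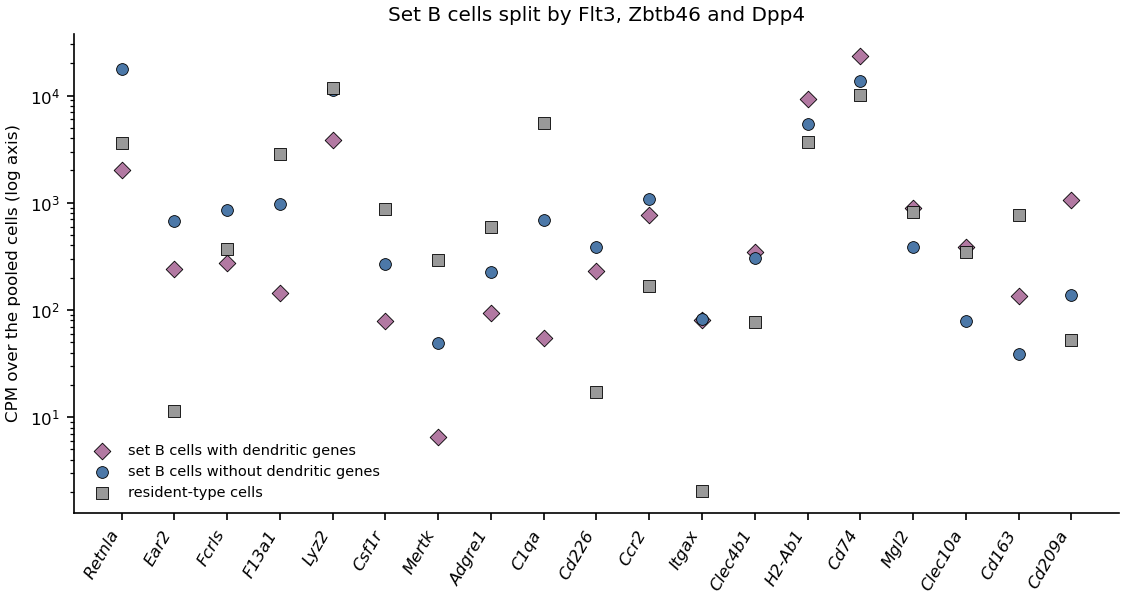
CPM (log axis) over the pooled cells of 3 kinds, namely 255 set B cells with UMIs of at least 2 of Flt3, Zbtb46 and Dpp4, the other 901 set B cells, and resident-type cells. From left to right the genes pass from those high in set B cells without dendritic genes (Retnla, Ear2, Fcrls, F13a1) to those high in cells with them (Clec10a, Cd163, Cd209a).

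The share of set B cells with the dendritic genes was 27.1% ± 11.4 among Y VEH libraries (n = 4, 15.3% to 38.7%) and 18.3% ± 6.91 among those of O VEH (n = 3). With fisetin it was 22.7% ± 1.37 in the young (n = 2) and 16.1% ± 6.65 in the old (n = 4, 6.90% to 22.8%). The ranges of the young and old libraries overlapped, and this share was not tested. The 4 genes called with age and Cd209a are given below also with these cells removed. So are the age leanings of the MHC class II, macrophage core, interferon-response and lysosome lists.

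A small fraction of set B cells was in cycle by transcript content. UMIs of 6 or more of 12 cell cycle genes were present in 62 cells (5.36%), against 18 resident-type cells (0.966%), at unequal depth. By library this share ran from 2.82% in Y VEH M2 to 13.8% in O FIS F2, which had 29 set B cells. Per UMI, the 12 genes summed to 496 CPM (281 to 998 over libraries) against 140 CPM. Mki67, a marker of proliferating cells, had 69.8 ± 38.5 CPM, and Top2a, the replication topoisomerase, 72.4 ± 38.5 CPM, each higher than in resident-type cells in 11 of 13 libraries.

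The first comparison asks whether set B cells changed in number with age or fisetin. As a share of set B plus resident-type cells, they made up 51.2%, 41.5%, 24.6% and 49.5% in Y VEH F1, F2, M1 and M2. In O VEH they made up 34.6%, 32.3% and 31.3% in F1, F2 and M1. O VEH was lower on average, at 32.7% ± 1.73 (n = 3) against 41.7% ± 12.1 (n = 4), a difference of -8.96 points, which became -14.7 without Y VEH M1, -5.81 without Y VEH F1 and -2.87 with 2 set B genes required. The groups overlapped through Y VEH M1, and an exact two-sided permutation test gave p = 0.257 (adjusted p = 0.428 over 5 comparisons). The smallest p this design can give is 0.0286. In O FIS the shares were 32.2%, 33.0%, 23.0% and 40.7%, a mean of 32.2% ± 7.23 (n = 4), which spanned the O VEH range, with a difference of -0.514 points (exact permutation p = 0.886). Y FIS had 43.2%, 43.0% and 27.3% in F1, F2 and M1, the last from 11 cells in both classes together, and differed from Y VEH by -3.87 points (exact permutation p = 0.629). Without Y FIS M1 this difference turned to 1.41 points. O FIS differed from Y VEH by -9.48 points (exact permutation p = 0.171, adjusted p = 0.428), a difference of -2.01 with 2 set B genes required and -1.24 with cells thinned to 2000 UMIs. Females had 38.9% (n = 8) and males 32.7% (n = 6), a difference of 6.14 points (exact permutation p = 0.202, adjusted p = 0.428).

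As a share of all kept cells, set B cells were 1.34% ± 0.926 in young vehicle mice (n = 4) and 1.08% ± 1.33 after fisetin (n = 4). In old mice the shares were 0.875% ± 0.206 with vehicle (n = 3) and 0.631% ± 0.201 with fisetin (n = 4). The Y FIS spread came from the female libraries at 2.75% and 1.55% and the male libraries at 0.0203% and 0%. Exact permutation tests gave p = 0.429 for O VEH against Y VEH, p = 0.171 for O FIS against O VEH (adjusted p = 0.427), p = 0.771 for Y FIS against Y VEH and p = 0.257 for O FIS against Y VEH. With 1 library left out, the difference of Y FIS from Y VEH ran from -0.819 to 0.0960 points, so its sign could turn. That of O VEH from Y VEH ran from -0.776 to -0.181 points. Females had 1.27% and males 0.672%, with an exact permutation p of 0.160 (adjusted p = 0.427). That difference of 0.596 points became 0.331 without Y FIS M1 and M2 and 0.385 without Y FIS F1. None of the 10 share comparisons passed. After adjustment, no comparison of groups could have passed alone, even at its smallest possible p. Equal shares were therefore not shown. The plots of shares by group show how far single libraries set these means.

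**Figure D3:**
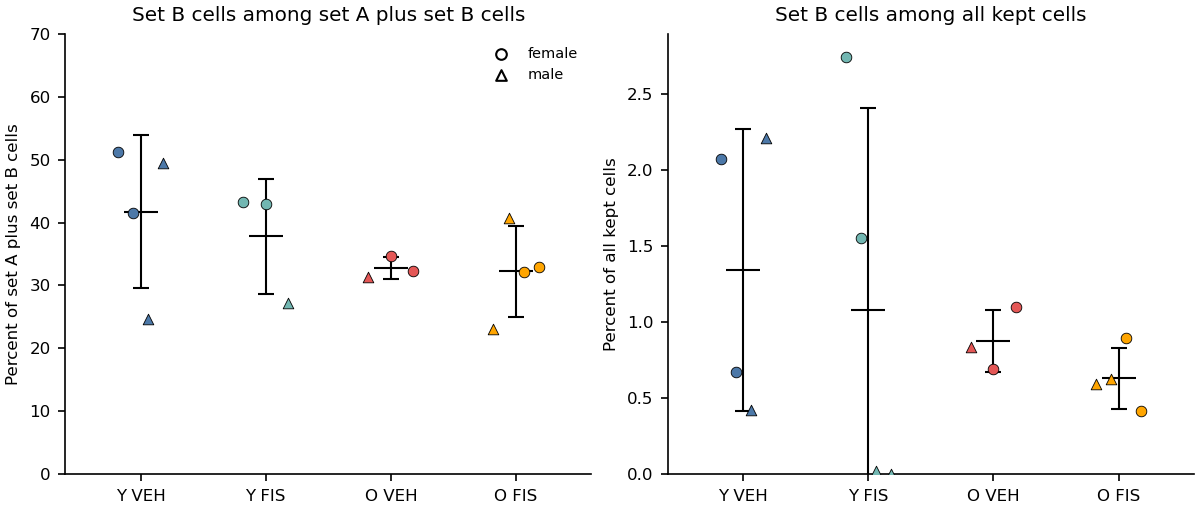
Percent of set B cells among set A plus set B cells (left) and among all kept cells (right) by library, with the group mean and SD, circles for females and triangles for males. The 3 O VEH libraries lie between 31.3% and 34.6% on the left while Y VEH runs from 24.6% to 51.2%, and on the right the lower Y FIS bar is cut at 0.

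The second comparison asks which transcripts differed in abundance inside set B cells. UMIs were summed over the set B cells of each library (494859 to 2949055 UMIs) and fitted by the quasi-likelihood method of edgeR, with a term for sex. A differentially abundant RNA (DAR) had a Benjamini-Hochberg adjusted p under 0.05, a log2 fold change beyond 0.25 and UMIs in over 10% of cells. In O VEH against Y VEH, 4 of 9610 genes tested were DARs (0.0416%), 2 higher and 2 lower in O VEH. At an unadjusted p under 0.05 there were 851 genes, 410 higher and 441 lower, and DESeq2 called 71 of the 481 genes that its filter on the mean count left, or 21 of 9610 without that filter.

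Of the 2 DARs that rose, Airn rose more. It is a long non-coding RNA (chr17:12960198-13079299, plus strand) known for silencing the paternal copy of Igf2r in imprinting. TMM-normalised CPM of Airn was 9.71, 13.7, 17.4 and 15.8 in the Y VEH libraries F1, F2, M1 and M2. In O VEH it was 65.4, 58.9 and 107.5 in F1, F2 and M1, well above every Y VEH library. The log2 fold change was 2.60 ± 0.30 (SE, edgeR adjusted p = 0.000783). In Y FIS it was 22.6 and 46.5, and in O FIS 37.3, 11.2, 45.2 and 36.5 in F1, F2, M1 and M2, so the fisetin libraries lay between the vehicle groups except for O FIS F2, which lay within Y VEH. Igf2r, the receptor that carries mannose 6-phosphate proteins and IGF2 to lysosomes (chr17:12901293-12988614, minus strand), rose as well. Its levels were 5.39, 6.21, 3.86 and 9.54 in Y VEH and 28.4, 25.7 and 39.1 in O VEH, with no overlap and a log2 fold change of 2.25 ± 0.32 (SE, edgeR adjusted p = 0.00633). In Y FIS Igf2r had 10.3 and 21.0, and in O FIS 16.8 to 33.9. Both rest on few molecules, 677 UMIs of Airn and 319 of Igf2r over all set B cells. Airn and Igf2r overlap over 28417 bases on opposite strands. Whether the counting used strand is not given in the sources used here, so reads of this stretch cannot be assigned to 1 of the 2 genes with certainty. Leaving out 1 library at a time, the Igf2r call was lost in 2 of 13 fits (adjusted p up to 0.0959) and the Airn call in 0. The Igf2r call was also lost with sex and replicate number as a term, at 2.07 (edgeR adjusted p = 0.0605). With cells of at least 2 set B genes, log2 fold changes were 1.68 for Airn (edgeR adjusted p = 0.0506) and 1.52 for Igf2r (edgeR adjusted p = 0.126), so both calls were lost. With cells carrying dendritic genes removed both were called, at 2.53 for Airn (edgeR adjusted p = 0.00115) and 2.17 for Igf2r (edgeR adjusted p = 0.00286).

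Cdk8, a kinase of the Mediator complex, and Cmss1 fell in O VEH. Cmss1 had 2305, 2312, 2589 and 2420 TMM-normalised CPM in Y VEH and 877, 541 and 941 in O VEH, and O FIS, at 805 to 1468, overlapped O VEH and lay below all Y VEH libraries. The log2 fold changes were -1.59 ± 0.19 for Cmss1 and -1.37 ± 0.16 for Cdk8 (SE, edgeR adjusted p = 0.000783 each), and -1.61 and -1.36 with cells carrying dendritic genes removed (edgeR adjusted p = 0.00115 each). Both belong to a list of 5 genes drawn up as possible markers of differences between libraries, a role that was not tested. The other 3, Camk1d, Lars2 and Gm15564, had log2 fold changes of -0.62, -1.05 and -0.69 (edgeR adjusted p = 0.172, 0.131 and 0.6). The same pair fell in resident-type cells, with log2 fold changes of -1.69 for Cmss1 (edgeR adjusted p = 0.00272) and -1.69 for Cdk8 (edgeR adjusted p = 0.00467). Lars2 fell there too, at -1.23 (edgeR adjusted p = 0.0381), while Camk1d and Gm15564 did not pass, at -0.89 and -1.29 (edgeR adjusted p = 0.215 and 0.347).

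**Figure D4:**
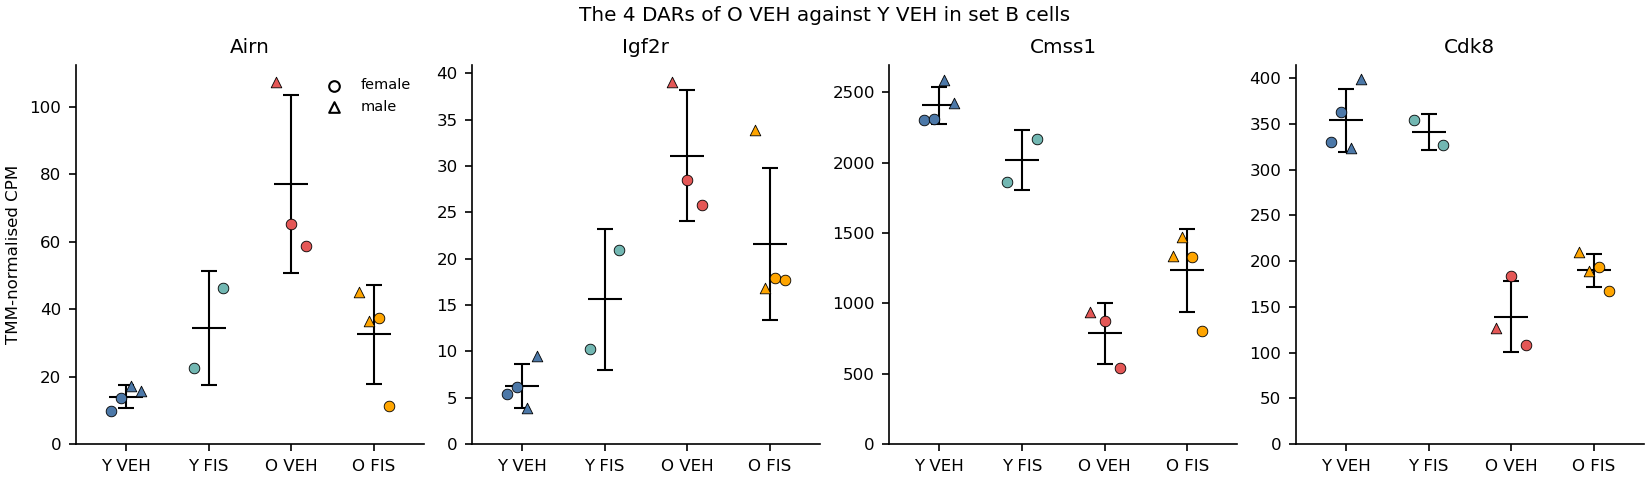
TMM-normalised CPM of the 4 DARs of O VEH against Y VEH in set B cells by library, with the group mean and SD, circles for females and triangles for males. O VEH libraries lie above all Y VEH libraries for Airn and Igf2r and below them for Cmss1 and Cdk8, and O FIS lies in between on average.

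Airn and Igf2r were not DARs in resident-type cells, at log2 fold changes of 0.40 (edgeR adjusted p = 0.967) and -0.68 (edgeR adjusted p = 0.938). The test of the difference itself, an interaction of age with cell class, did not pass for either gene. The difference was 2.25 for Airn (edgeR adjusted p = 0.582) and 3.02 ± 0.67 for Igf2r (SE, edgeR adjusted p = 0.308). Of 10992 genes, 0 (0.0%) passed this interaction, with 676 at an unadjusted p under 0.05 and the smallest adjusted p at 0.066, for Tnf. An age response particular to set B cells was therefore not shown.

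Apart from that list of 5, no gene list held a DAR with age, but several leaned in one direction below the threshold. These are counts of signs and medians, set beside the median over all 9610 genes of 0.002 and a near-even split of 4828 positive to 4782 negative. All 21 interferon-response genes tested had a positive log2 fold change in O VEH, with a median of 0.61, and 8 had an unadjusted p under 0.05. Ifi27l2a, the most abundant of them, had 0.87 ± 0.17 (SE, edgeR adjusted p = 0.125). Bst2, which tethers virus particles to the cell surface, had 0.43 (edgeR adjusted p = 0.6). Interferon-response genes also leaned up with age in resident-type cells. There Ifi27l2a had 0.94 and Bst2 0.92 (edgeR adjusted p = 0.544 and 0.35). All 15 lysosome and phagocytosis genes tested were positive, with a median of 0.29, and the cathepsins Ctsd and Ctsb had 0.59 and 0.57 (edgeR adjusted p = 0.294 and 0.423). Of 11 MHC class II genes, 10 were negative, with a median of -0.38, and Cd74 had -0.40 (edgeR adjusted p = 0.485). Y FIS leaned the same way against Y VEH, with 9 of the 11 negative and a median of -0.38. Both comparisons share the Y VEH libraries. Of 14 macrophage core genes, 12 were positive, with a median of 0.56, and C1qa had 0.83 (edgeR adjusted p = 0.588). Of 13 immediate early and stress genes, 10 were negative, with a median of -0.34. The 5 erythrocyte genes were all positive, with a median of 1.75 and the highest level in O VEH F1. The 5 endothelial markers tested were also all positive (median 0.82) and the 7 fibroblast markers all negative (median -0.76), and the part of these foreign transcripts in the leanings was not tested. Of 11 dendritic genes tested, 7 were negative and 4 positive, with a median of -0.09 and a range of -2.13 to 1.08. Flt3 had -1.50 and Dpp4 -0.88 (edgeR adjusted p = 0.447 and 0.388), while Zbtb46 had -0.07. These values stand beside the lower share in O VEH of cells with at least 2 of those 3 genes. Those cells had more Cd74 (23510 against 13880 CPM) and less C1qa, as given above. With them removed, all 11 MHC class II genes were negative, with a median of -0.28, and Cd74 had -0.41 (edgeR adjusted p = 0.49). Of the 14 macrophage core genes, 11 were then positive, with a median of 0.35, and C1qa had 0.58 (edgeR adjusted p = 0.828). Of 19 interferon-response genes tested there, 18 were positive, with a median of 0.66, and 12 of 15 lysosome and phagocytosis genes were, with a median of 0.26. Of 12 senescence-related genes tested, 7 were positive and 5 negative, with a median of 0.08, and Cdkn1a, the cell cycle inhibitor p21, had 0.18 (edgeR adjusted p = 0.835). The chemokine and cytokine list had 7 positive and 9 negative genes.

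The third comparison asks what fisetin did in old and in young mice. O FIS against O VEH gave 0 DARs of 9610 genes (0.0%), with 463 genes at an unadjusted p under 0.05, 195 higher and 268 lower. DESeq2 gave 0 as well, but without a filter on low counts edgeR gave 44. Over all genes 4916 were positive and 4694 negative, with a median of 0.007. For the 4 age DARs the log2 fold changes ran against age, at -1.27 for Airn, -0.60 for Igf2r, 0.61 for Cmss1 and 0.48 for Cdk8 (edgeR adjusted p = 0.935 each). Age and fisetin here share the O VEH libraries, so opposite signs are no independent evidence. The same holds for the lists. Of 21 interferon genes, 20 were negative in O FIS, with a median of -0.40, and Ifi27l2a had -0.13 (edgeR adjusted p = 0.963). All 11 monocyte genes tested were positive, with a median of 0.64, and Ccr2 had 0.15 (edgeR adjusted p = 0.941). The erythrocyte genes were all negative in O FIS, with a median of -1.19, as were all 5 endothelial markers (-0.31), and the part of these foreign transcripts was not tested.

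Y FIS against Y VEH also gave 0 DARs (0.0%), with 521 genes at an unadjusted p under 0.05, on only 2 Y FIS libraries, both female. DESeq2 gave 0, and edgeR without a filter on low counts 67. Over all genes 4773 were positive and 4837 negative, with a median of -0.003. All 15 inflammasome and NF-kB genes were negative, with a median of -0.21, 14 of 16 chemokine and cytokine genes were negative, with a median of -0.52, and 19 of 21 interferon genes were positive, with a median of 0.36. Of 11 MHC class II genes, 9 were negative, with a median of -0.38 and 5 at an unadjusted p under 0.05. Foreign markers moved in the same contrast. The 3 smooth muscle markers tested were all positive with an unadjusted p under 0.05, with a median of 1.91, and their list summed to 273 CPM in 1 of the 2 Y FIS libraries and lay within the Y VEH range of 25.3 to 58.6 CPM in the other. The 5 erythrocyte genes (median 0.83) and 5 endothelial markers (0.52) were all positive, the 4 B cell markers all negative (-0.79), and the 3 neutrophil markers had a median of -3.23. Their part in these leanings was not tested. O FIS against Y VEH gave 0 DARs (0.0%), with 569 genes at an unadjusted p under 0.05 and 9 DARs by DESeq2 among the 667 genes its filter left. The difference between the fisetin effects of the 2 ages gave 0 DARs (0.0%), with 732 genes at an unadjusted p under 0.05 and 0 by DESeq2 among the 481 genes its filter left. The Airn difference between the ages was -2.96 (edgeR adjusted p = 0.0677). It draws on the O VEH and Y VEH libraries that gave the Airn call with age, as do the alternatives. By its sign the difference is therefore no independent evidence. It was negative under all 25 alternatives that gave an adjusted p, from -3.42 to -1.89, and called under 5 of them, with cells carrying dendritic genes removed among them (-2.89, edgeR adjusted p = 0.0471). Over the 25 the adjusted p (edgeR or DESeq2) ran from 2.56e-13 to 0.794.

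Female against male gave 7 DARs (0.0728%), of which 6 were X-inactivation or Y-linked RNAs. The remaining DAR was Slc16a3, the lactate exporter MCT4, higher in females by 0.98 ± 0.17 on the log2 scale (SE, edgeR adjusted p = 0.0485). The sexes overlapped for Slc16a3, and the call was lost in 11 of 13 fits that left out 1 library.

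The last comparison asks whether the marker genes themselves moved. Since they chose the cells, each was tested in cells chosen without it, by UMIs of at least 2 of the other 4 set B genes and of more of those than of set A. Retnla, tested in 1056 cells, had 9358 ± 3175 CPM in young (n = 4) and 9125 ± 2264 CPM in old vehicle mice (n = 3). With fisetin it had 12170 ± 1593 CPM in young (n = 2) and 8320 ± 2183 CPM in old mice (n = 4). Its log2 fold change with age was -0.08 ± 0.29 (SE, edgeR adjusted p = 0.966). These fits called 49 of 9662 genes (0.507%) in O VEH against Y VEH and 50 (0.517%) in O FIS against Y VEH. In set B cells 4 and 0 of 9610 were called there. Retnla was not among the genes called. Why this choice of cells gave more calls was not tested. Ear2 had 414 ± 179 CPM in young and 485 ± 117 CPM in old vehicle mice, with a log2 fold change of 0.20 ± 0.30 (SE, edgeR adjusted p = 0.899), where 0.0205% of genes were called. Fcrls had 516 ± 167 and 384 ± 7.58 CPM, with -0.50 ± 0.28 (SE, edgeR adjusted p = 0.533), where 0.0471% were called with age and 0.245% in O FIS against Y VEH. Clec4b1 had 276 ± 36.5 and 207 ± 33.8 CPM, with -0.46 ± 0.17 (SE, edgeR adjusted p = 0.35), where 0.0318% were called with age and 0.0636% in O FIS against Y VEH. With at least 3 of the other 4 genes required, the age values were -0.11 for Fcrls and -0.14 for Clec4b1. With cells carrying dendritic genes removed they were -0.66 and -0.53 (edgeR adjusted p = 0.383 and 0.359). None of these 4 genes was called in any of the 4 group comparisons, and no gene at all was called in these cells in O FIS against O VEH or in Y FIS against Y VEH (0.0%).

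Cd209a was lower in old than in young libraries, but the comparison of age among vehicle mice missed the threshold. In 1611 cells chosen without it, of which 22.2% had a Cd209a UMI, its CPM was 466, 339, 307 and 241 in Y VEH F1, F2, M1 and M2, and 287 and 238 in Y FIS. It was 122, 123 and 185 in O VEH F1, F2 and M1, and 136, 79.9, 104 and 64.7 in O FIS F1, F2, M1 and M2. All 6 young libraries lay above all 7 old libraries, which 23 of 9794 genes with at least 5 CPM did (0.235%). O FIS differs from Y VEH in age and in fisetin together. In that comparison Cd209a was lower by 1.83 on the log2 scale (SE 0.24, edgeR adjusted p = 0.0136), 1 of 3 genes called (0.028%). In O VEH against Y VEH the log2 fold change was -1.30 ± 0.26 (SE, edgeR adjusted p = 0.0717), which missed the threshold, where 0.0653% of genes were called. The fisetin contrasts gave -0.53 in old (edgeR adjusted p = 0.842) and -0.52 in young mice (edgeR adjusted p = 0.904), and -0.099 without O VEH M1 and -0.27 without Y VEH F1. The share of these cells with at least 2 of Flt3, Zbtb46 and Dpp4 moved with Cd209a, from 17.1% to 30.0% in young libraries and from 9.52% to 17.1% in old ones. With those cells removed, Cd209a had 80.8 ± 77.2 CPM in young and 39.3 ± 18.7 CPM in old vehicle libraries, and 145.5 ± 3.32 CPM and 47.6 ± 31.4 CPM in the young and old fisetin libraries. The log2 fold change of O FIS against Y VEH was then -0.83 (edgeR adjusted p = 0.565), and the call was lost. That of O VEH against Y VEH was -1.33 ± 0.48 (SE, edgeR adjusted p = 0.32), with Y VEH F1 far above the other vehicle libraries. Cd209a then had 193, 38.9, 23.5 and 67.2 CPM in Y VEH F1, F2, M1 and M2 and 34.5, 59.9 and 23.5 CPM in O VEH F1, F2 and M1, so the groups overlapped. With at least 3 of the other 4 genes required it was -0.79 (edgeR adjusted p = 0.481). The O FIS against Y VEH call was also lost with at least 3 of the other 4 genes required (-1.42, edgeR adjusted p = 0.322) and in 2 of 13 fits that left out 1 library (edgeR adjusted p up to 0.0711).

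**Figure D5:**
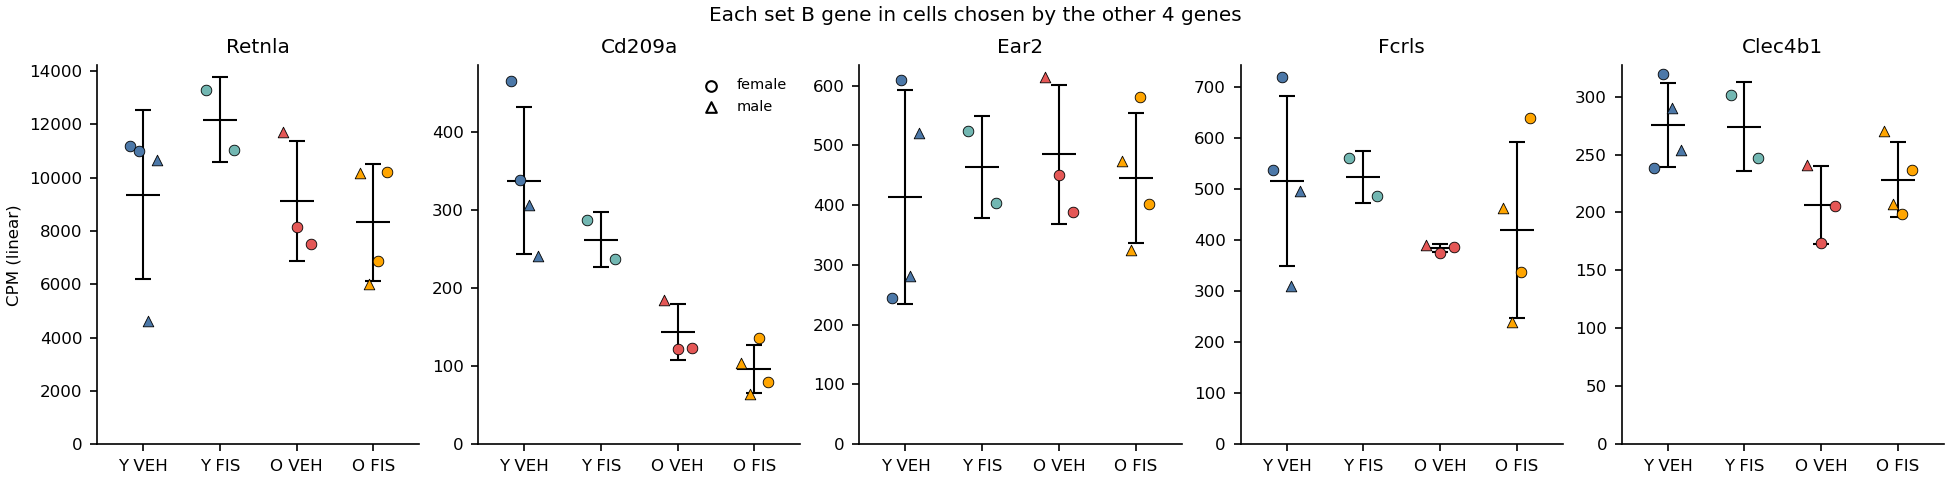
CPM (linear axes from 0) of each set B gene by library in cells chosen by the other 4 genes, with the group mean and SD, circles for females and triangles for males. Cd209a separates the 6 young libraries (238 to 466 CPM) from the 7 old ones (64.7 to 185 CPM), while the young and old libraries overlap for the other 4 genes.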

How the data were processed

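Single-cell RNA-seq of 15 aortic libraries was analysed from raw UMI counts. The deposited counts were made by the authors with Cell Ranger 8.0.1 on GRCm39 and handled in Seurat 5.2.0, per the submitters' processing notes. Strand and intron settings are not given in the sources used here. No normalised values or cell annotations were used.

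Cells were chosen by the stated rule. The members and the gene lists were chosen with earlier results of these data known, and lists are described by counts and medians only. Counts were summed per library and cell class for libraries with at least 10 such cells, filtered with filterByExpr, scaled by TMM and fitted with edgeR 4.0.16 (glmQLFit, glmQLFTest, sex as a covariate, Benjamini-Hochberg over all genes tested). Shares were compared with exact permutation tests, two-sided, over libraries with at least 10 set A plus set B cells for the share among these, and over all 15 libraries for the share of all kept cells. Libraries of a group are pools of mice, and nothing ties a pool to single animals, so p-values measure the spread between pools. Intervals on shares of cells are exact Clopper-Pearson and cover counting error only. Doublets were scored with Scrublet in scanpy 1.11.5 at an expected rate of 0.08 and kept. DESeq2 1.42.0, other thresholds of the rule, thinning to 2000 UMIs per cell, a replicate block and leaving out each library were tried as alternatives. The fits were tested on simulated counts.

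Genes named are those of the rule, DARs, at most 4 genes of highest CPM per list, and the 20 highest and 10 lowest against resident-type cells with at least 50 CPM in the higher class. Flt3, Zbtb46, Dpp4, Irf8, Ly6c2, Lrrn4, Gm15564 and Tnf were named, and the split by dendritic genes was made, after their values were seen.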

Additional observations from a re-analysis of the deposited data

Results flagged for a closer look

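Of 59 values by group that were looked at for a library far from the rest of its group, 3 stood apart by Dixon's test at its 95% level, and chance alone marks about 1 in 20. Retnla in cells chosen without it was 4605 CPM in Y VEH M1, against 10670 to 11170 CPM in the other 3 Y VEH libraries. That library also had the lowest share of set B cells in Y VEH, and without it the log2 fold change of Retnla in O FIS against Y VEH was -0.45, with no call. Folr2, a folate receptor of resident macrophages, was 19.1 TMM-normalised CPM in set B cells of Y VEH M2, against 1.24 to 3.96 CPM in the other 3. Igf2r was 33.9 TMM-normalised CPM in O FIS M1, against 16.8 to 17.9 CPM in the other 3 O FIS libraries, so the O FIS group as a whole overlapped O VEH only through this library.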

How the results depend on the processing

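Nearly all counts and differences were small or under the threshold, so alternatives mostly moved values near 0. The share of set B among set A plus set B cells turned sign in O FIS against O VEH with 2 set B genes required (0.861 points), with cells thinned to 2000 UMIs (4.98) and without cells with dendritic genes (0.0986). In Y FIS against Y VEH it turned with 2 genes (0.0732), 4 genes (2.79), thinning (1.24) and without those cells (2.24). The last 3 settings also left Y FIS M1 under 10 cells and so without it, which alone turned the sign (1.41), so these turns cannot be put down to the settings. In Y FIS against Y VEH the share of all cells turned to 0.806 points without Y FIS M1 and M2. DAR counts without a filter on low counts were 191 in O VEH against Y VEH, 44 in O FIS against O VEH, 67 in Y FIS against Y VEH, 105 in O FIS against Y VEH, 62 between the sexes, 77 for the fisetin difference and 90 for the class interaction. DESeq2 gave 71, 9 and 12 in O VEH against Y VEH, O FIS against Y VEH and between the sexes. Its filter on the mean count left no adjusted p for Airn, Igf2r and Cdk8. With no such filter, an alternative chosen after seeing the data, it gave 21, 10 and 12 there and 1 for the fisetin difference, and all 4 age DARs were called (DESeq2 adjusted p up to 8.03e-05, for Igf2r). O FIS against Y VEH had 2 DARs with the replicate block, with only its own groups or without top doublet scores, and 1 with 2 set B genes. The fisetin difference had 1 DAR, Airn, without dendritic-gene cells, and the class interaction 2 with resident-type cells free of set B genes. Cells chosen without Retnla had 49 DARs in O VEH against Y VEH and 50 in O FIS against Y VEH. With dendritic-gene cells removed from that choice these counts were 53 and 28. Set B cells had 4 and 0, so the number of DARs with age depended on the choice of cells. The causes were not tested. For set B genes in cells chosen without them, the log2 fold change of Retnla became 0.154 (O VEH against Y VEH) and 0.0822 (O FIS against Y VEH), that of Fcrls 0.0106 and that of Clec4b1 0.0706 (both O FIS against Y VEH) with 3 of the other 4 genes. Without dendritic-gene cells it became -0.0528 for Retnla between the sexes, 0.50 and 0.25 for Cd209a in O FIS against O VEH and Y FIS against Y VEH, and -0.0569 for Ear2 in O FIS against Y VEH. Cd209a in O FIS against Y VEH lost its call at -1.42 and -0.83 under these settings.

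Leaving out 1 library at a time, the share among set A plus set B cells ran from -14.7 to -5.81 points in O VEH against Y VEH, from -15.2 to -6.32 in O FIS against Y VEH, from 4.21 to 9.49 between the sexes, from -3.35 to 2.55 points in O FIS against O VEH and from -9.57 to 1.41 in Y FIS against Y VEH, and the share of all cells from -0.776 to -0.181 in O VEH against Y VEH, from -1.02 to -0.424 in O FIS against Y VEH, from -0.336 to -0.133 (without O VEH F2) in O FIS against O VEH, from 0.385 to 0.852 between the sexes and from -0.819 to 0.0960 in Y FIS against Y VEH. DAR counts ran from 3 (without O VEH M1) to 7 (without Y VEH M2) in O VEH against Y VEH, 0 to 1 in O FIS against O VEH, 0 to 4 in Y FIS against Y VEH (4 without Y FIS F1, where the lone Y FIS library is assumed to vary like the other groups), 0 to 4 in O FIS against Y VEH, 6 to 10 between the sexes, 0 to 2 for the fisetin difference and 0 to 1 for the class interaction. Log2 fold changes of Retnla ran from -0.39 to 0.10 in O VEH against Y VEH, -0.28 to 0.23 in O FIS against O VEH and -0.11 to 0.30 between the sexes. Those of Cd209a ran from -1.72 to -1.10 in O VEH against Y VEH (called without O VEH M1, edgeR adjusted p = 0.0407), from -1.998 to -1.64 in O FIS against Y VEH, from -0.72 to -0.099 in O FIS against O VEH and from -0.71 to -0.27 in Y FIS against Y VEH. Ear2 ran from -0.0537 to 0.53, -0.29 to 0.14, -0.17 to 0.53, -0.11 to 0.41 and -0.24 to 0.16 in O VEH against Y VEH, O FIS against O VEH, Y FIS against Y VEH, O FIS against Y VEH and between the sexes. Fcrls ran from -0.0486 to 0.37 in O FIS against O VEH and Clec4b1 from -0.20 to 0.15 in Y FIS against Y VEH.

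The labels do not say whether libraries with the same replicate number belong together. Deviations from group means correlated from -0.146 to 0.305 over 16 same-numbered pairs, 3 of them over 0.1, and 12 of 46 other pairs were over 0.1. Deviations cancel within a group, and those of the Y FIS libraries mirror each other, so these correlations cannot settle it. With sex and number as a replicate block, O VEH against Y VEH had 3 DARs, and Igf2r had 2.07 (edgeR adjusted p = 0.0605). All other results kept, under the settings that gave them a value, their direction and their side of the threshold, or a count within 1.5 times, except 19 settings of Slc16a3, Igf2r and Airn that lost a call, which for Slc16a3 include 2 set B genes, at least 40 cells per library and removal of top doublet scores. The thinned share of all cells was not run, since cells outside the gate were not thinned. With 29 to 189 set B cells per library, changes of low genes are hard to see.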
